A study of Homo sapiens with 5 samples.

Results

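E2F1 binding in LM2 cells was described from a single chromatin immunoprecipitation and sequencing (ChIP-Seq) library, called against input DNA of the same cells. LM2 is a lung-metastatic derivative of MDA-MB-231, a triple-negative human breast cancer cell line, and no treatment is named for these libraries. The paper's blots for its ChIP-Seq show LM2 cells with a control vector or an shRNA, so these cells may have carried a vector. All peaks on chromosomes 1 to 22 and X were taken, which gave 36901 of the 59120 peaks in the lists of E2F1, MYC and Fra-1 used here. A further 32 E2F1 peaks lay on other sequences of the assembly and were left out. The series asked where these transcription factors reside in the genome of these cells; MYC had 4857 peaks and Fra-1 17311 on the same chromosomes, each from 1 library against the same input. Each factor thus had 1 library and no replicate, so no p-value is given, and the 95% Wilson intervals below cover counting error only. Peaks and genes of 1 library are not replicates, and neighbouring genes can share a peak.

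E2F1 is a transcription factor that pairs with a DP protein and binds promoters of genes needed for entry into S phase, among them genes for DNA replication, nucleotide synthesis and the cell-cycle engine. Pocket proteins of the RB family bind E2F factors and hold these promoters silent until cyclin-dependent kinases release them. A separate element, the cell cycle genes homology region (CHR), often next to a CCAAT box, marks promoters that are switched on later, in G2 phase and mitosis.

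The sites below show what the library holds at its clearest cell-cycle targets. They are the E2F elements at the 6 strongest promoter peaks of proliferation genes that carry one within 50 bp of the summit, followed by those at the promoters of E2F1, RBL1 and E2F2 themselves. Sequences are the forward strand of GRCh37, 5′ to 3′, and capitals mark the 8-base E2F motif, which reads TTTGGCGC, TTTCCCGC, TTTGCCGC or TTTCGCGC on one strand or the other.
CDC25A, chr3:48229933-48229962: tttcctagttgGCGCCAAAcggaatccacc
CDKN2D, chr19:10679946-10679975: gaacccggcagGCGGGAAAgaaggctggtt
TOPBP1, chr3:133380774-133380803: cgggaaccgacTTTCGCGCcaaccgcgcgg
MCM2, chr3:127317245-127317274: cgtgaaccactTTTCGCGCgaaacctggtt
GINS3, chr16:58426359-58426388: cgtccccgggcGCGGGAAAcgagtttcaat
GINS1, chr20:25388303-25388332: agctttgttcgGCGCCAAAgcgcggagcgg
E2F1, chr20:32274206-32274235: gccaaatccttTTTGCCGCgaaagagccac
RBL1, chr20:35724398-35724427: cacaaccacctGCGCCAAAgcgcgcgaaaa
E2F2, chr1:23857749-23857778: ttttttttttaGCGCCAAAcgtcgtgccgc
The centre of the marked motif lay 2.5 bp from the summit at RBL1, 4.5 bp at E2F1 and 26.5 bp at MCM2. A further match to the motif is left unmarked at RBL1, and another overlaps the marked one at MCM2.

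Peaks of mitosis genes carried a different element. The 4 strongest of them with a CHR within 50 bp of the summit are shown with the motif TTTGAA, or its complement, in capitals.
BIRC5, chr17:76210345-76210374: ttaaccgccagaTTTGAAtcgcgggacccg
KIF23, chr15:69706621-69706650: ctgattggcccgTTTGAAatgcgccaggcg
INCENP, chr11:61891461-61891490: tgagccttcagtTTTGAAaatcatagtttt
MAD2L1, chr4:120987962-120987991: cccgccaagcgtTTCAAAagtaacgacgca
BIRC5 encodes survivin, KIF23 a kinesin of the central spindle, INCENP a partner of Aurora B, and MAD2L1 a spindle checkpoint protein.

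The E2F1 list ran from a fold enrichment over input of 2.20 to 92.5, with a median of 8.88. Fold enrichment is the peak caller's ratio of the pileup at the summit plus 1 to the local level expected from input plus 1. Pileup is the caller's value, apparently scaled to the input library, and is not read here as a raw tag count. Widths ran from 113 bp, the fragment length, to 7500 bp, with a median of 290 bp and quartiles at 178 and 536 bp. Stronger peaks were wider: Spearman's rho between fold enrichment and width was 0.69 over 36901 peaks, both being read from the same tags. Peaks of at least 1000 bp numbered 2769 (7.50%, 7.24 to 7.78%) and peaks of at least 5000 bp numbered 9.

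**Figure D1:**
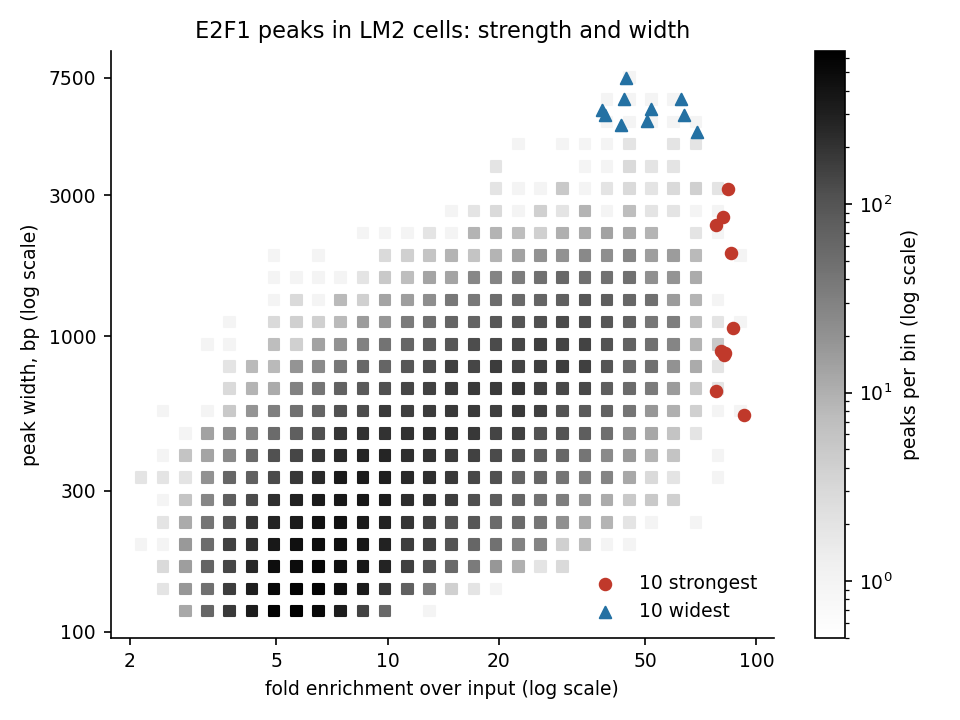
Fold enrichment over input (horizontal, log scale) against peak width in bp (vertical, log scale) for all 36901 E2F1 peaks, in shaded bins, with the 10 strongest as circles and the 10 widest as triangles. The 10 strongest sit at 77.8 or above and span 542 to 3144 bp, while the 10 widest span 4895 to 7500 bp but reach 68.9 at most.

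The strongest peak of the list did not mark a protein-coding gene. It lay at chr12:120730362-120730903, in promoter windows of RNU4-1 and RNU4-2, which encode the U4 RNA of the spliceosome. Its pileup was 133 and its fold enrichment 92.5. The second, at chr2:121832180-121833245, was intergenic, 81951 bp from the nearest protein-coding gene, GLI2, with a fold enrichment of 86.5, and the last of the 10 lay in an intron of PTPRS at chr19:5308777-5309427 (77.8). The other 7 overlapped promoter windows of protein-coding genes. GADD45B, a stress-response gene, had 85.4, and IER2, an immediate early gene, 83.9. The IER2 summit lay 2642 bp downstream of the start site, beyond the 2.5 kb of the window, which the peak overlapped at its edge. COX8A, a subunit of cytochrome c oxidase, had 81.8, TMSB4X, which encodes an actin-binding peptide, 81.3, RNPS1, a splicing regulator, 80.3, and HSP90AB1, a chaperone, 77.8. The last of the 7, at chr16:30064092-30064967 with 82.3, held the start of ENSG00000285043, a gene without a symbol in the annotation used, and overlapped the body of TLCD3B.

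These peaks at the top of the list did not share one of the motifs searched. The 61 bases around the summit are shown for the 3 that lay outside protein-coding promoters (GRCh37, forward strand, no motif marked).
RNU4-1 and RNU4-2, chr12:120730703-120730763: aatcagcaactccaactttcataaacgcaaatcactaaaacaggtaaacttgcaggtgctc
near GLI2, chr2:121832815-121832875: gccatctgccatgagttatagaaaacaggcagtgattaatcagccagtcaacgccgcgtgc
PTPRS intron, chr19:5309072-5309132: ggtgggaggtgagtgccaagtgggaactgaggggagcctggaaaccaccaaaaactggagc
Of the 10, only COX8A had an E2F motif within 50 bp of the summit, and none had an AP-1 motif there.

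Fold enrichment depends on the level in its denominator. The largest pileup, 134, was reached by the peak near GLI2 and by the wide ZFP36L1 peak. Their folds were 86.5 and 62.6, with local levels of 0.560 and 1.16. Recovered from the deposited pileup and fold, that local level was 0.442 to 0.657 at the 10 strongest peaks, against 0.45 for the input spread evenly over the genome and a median of 0.996 over all peaks. Of the 100 strongest peaks 43 had a local level under 0.5. At the weakest 10% of the list the median level was 2.81, while pileup there had a median of 14 against 73 in the strongest 10%. The median level was 0.978 in the strongest 10% and 1.57 in the second weakest 10%. In the groups between these it ran from 0.952 to 0.988. Low folds thus went with low pileup, and with a higher local input level only at the weak end of the list.

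The 10 widest peaks were led by PLEC, which encodes the cytoskeletal linker plectin, with 7500 bp at chr8:145008082-145015581, and a second PLEC peak of 5186 bp. GAPDH, a glycolytic enzyme, had a peak of 6338 bp, and DKK1, a secreted WNT antagonist, one of 5839 bp. Each covered 100% of its gene. ZFP36L1, an mRNA decay factor, had 6326 bp, DUSP6, a phosphatase of ERK, 5895 bp, IRS1, an adaptor of the insulin receptor, 5595 bp, JUN 5591 bp, and SPRY4, another inhibitor of ERK signalling, 4895 bp. The remaining wide peak, of 5365 bp, lay in a promoter window of NEAT1, a long noncoding RNA of nuclear paraspeckles. Several of these are genes that growth factor signalling is known to switch on quickly.

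Of the 100 widest peaks 12 were also among the 100 strongest, each set being 100 of 36901 peaks. Among the 100 widest, 77 lay in a canonical protein-coding promoter window, and 59 of those reached further downstream of the TSS than upstream, with medians of 2366 bp downstream and 1022 bp upstream. Among the 100 strongest the corresponding medians were 632 and 464 bp. The local input level was higher at the widest (median 1.24) than at the strongest (0.556), and its part in the widths was not tested.

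Position changed with strength. When the peaks were ranked by fold enrichment and split into 10 equal groups, 96.1% (95.5 to 96.7%) of the strongest 10% overlapped a promoter window, from 2 kb upstream to 2.5 kb downstream of an annotated TSS, against 46.4% (44.8 to 48.0%) of the weakest. The summit lay within 100 bp of a TSS in 71.6% of the strongest 10% and in 7.64% of the weakest, and median width fell from 860 to 175 bp. The bases within 50 bp of the summit were 64.4% G or C in the strongest 10% and 47.5% in the weakest.

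Motifs at the summit changed with it, in opposite directions. The E2F motif lay within 50 bp of 175 of 3690 summits in the strongest 10% (4.74%, 4.10 to 5.48%) and of 0.542% in the weakest. The same letters in reversed order, with the same base composition, lay at 2.55% of the strongest 10%, windows 2 kb to the side held the motif in 0.312%, and 1.38% of all canonical protein-coding TSS held it within 50 bp. With 100 bp either side of the summit the share was 7.15%. The motif was densest close to the summit, at 27.1 per 1000 peaks within 20 bp and 7.59 between 100 and 120 bp in the strongest 10%. The ETS motif CCGGAAG went from 10.6% of the strongest 10% to 1.03% of the weakest (8.34% of all TSS windows), and the YY1 motif AAGATGGC from 3.36% to 0.352% (3.03% of all TSS windows). The AP-1 motif TGAGTCA went the other way, from 1.76% to 18.8%, against 1.09% of all TSS windows.

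**Figure D2:**
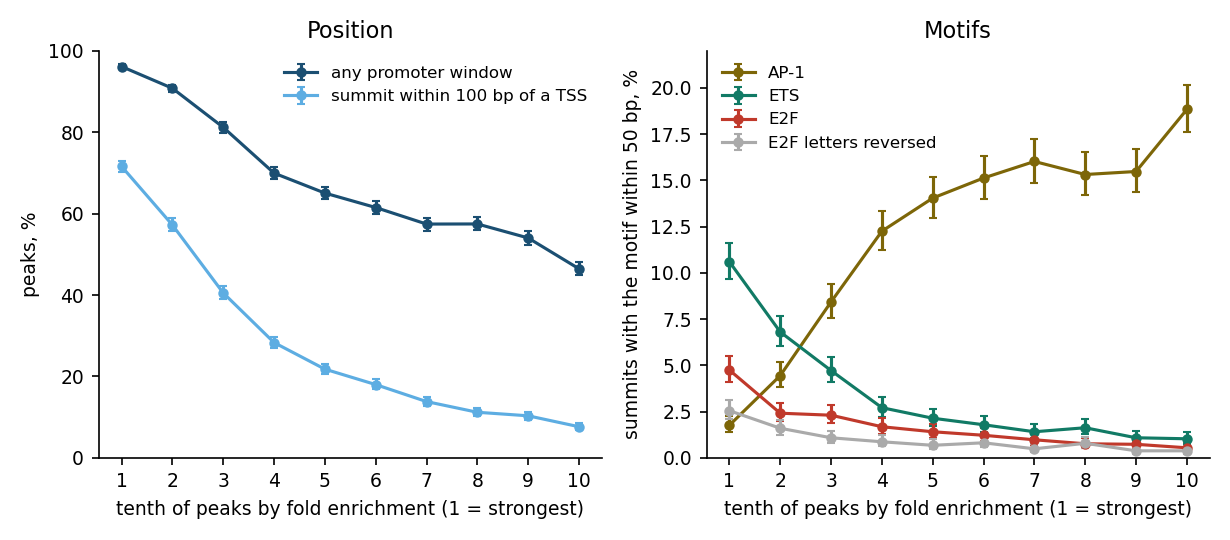
Peaks in 10 equal groups by fold enrichment, 1 being the strongest (horizontal). Left, the percentage of peaks in any promoter window or with the summit within 100 bp of a TSS; right, the percentage of summits with a motif within 50 bp; bars are 95% Wilson intervals. Promoter position, ETS and E2F motifs decline towards the weak end, where AP-1 reaches 18.8%.

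AP-1, the dimer of FOS and JUN proteins, was the most frequent of the searched motifs away from promoters. Outside all promoter windows lay 11812 peaks, of which 26.2% had an AP-1 motif and 0.770% an E2F motif at the summit, against 5.56% and 2.10% of the 25089 promoter peaks. The TEAD motif ACATTCC was likewise more frequent outside (4.06%) than inside (1.37%). Distal peaks were weaker, with a median fold of 6.94 against 10.8, and narrower, with 227 against 341 bp. Sites from 3 of the strongest distal peaks with an AP-1 motif are shown, with the motif in capitals (GRCh37, forward strand), under the name of the nearest or host gene.
SDC1, chr2:20386371-20386399: cgactgttctgTGAGTCAgtaactagggg
ECHDC3, chr10:11726967-11726995: cttacgagtcaTGAGTCAtcgcttcttcc
PARP6, chr15:72529881-72529909: aaacccagtaaTGACTCAgcaccagactc
The peak near SDC1, a syndecan of the cell surface, had a fold enrichment of 70.2 and also overlapped a MYC and a Fra-1 peak.

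Most bound promoters held more than 1 peak. With 1 canonical TSS per gene, 11507 protein-coding promoters had a peak, of which 5424 had 1, 3577 had 2, 1614 had 3 and 23 had 7 or more. Promoters with 2 or more made up 52.9% (52.0 to 53.8%). The share fell to 13.6% when peaks within 500 bp of each other were merged, and to 24.9% among promoters counted with peaks of at least 10-fold only. Neighbouring peaks were separated by a median gap of 186 bp, with a median of 609 bp between summits. The strongest peak of such a promoter exceeded the second by a median factor of 2.13, and the second had a median fold of 8.67. Summits lay on both sides of the TSS in 4336 of 6083 promoters (71.3%), downstream only in 1006 and upstream only in 741.

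The median strength of a gene was 20.7 with 1 peak in its canonical window, 22.6 with 2, 30.3 with 6 and 22.9 with 7 or more. Strength is the largest fold among a gene's promoter peaks, so it can rise with their number by construction. TSC22D1, FOSL2 and FASN had 9 each and LZTS2, a putative tumour suppressor, had 8. FOSL2, which encodes the AP-1 subunit Fra-2, had folds of 21.9, 15.7, 17.04, 23.4, 19.9, 5.86, 9.44, 4.37 and 8.92 with summits from -2199 to 2673 bp of its TSS, negative positions being upstream. At TSC22D1, a regulator induced by TGF-β, the 9 folds ran from 3.71 to 27.5. The strongest lay at -1607 bp and a train of 5 peaks with folds of 3.71 to 6.22 lay 1198 to 2415 bp downstream. FASN, the fatty acid synthase, had 9 narrow peaks, covering 1649 bp in all, with no fold above 15.5. A further 19 genes had 7 each. Over all 23, the strongest peak of the window ran from 9.66 at SPTBN1 to 68.4 at CITED2, with a median of 22.9. The genes with 7 peaks include HES1 (14.5), EGR1 (22.9), FOXO3 (18.2) and JUND (46.2), CITED2 and JUND being named after their values were seen. HES1 is a target of Notch signalling, EGR1 an immediate early factor and FOXO3 a forkhead factor of stress responses. Several peaks were somewhat more frequent at strongly bound promoters (57.2%) than at weakly bound ones (41.7%), a contrast that is partly built in for the same reason.

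Of 20098 protein-coding genes, 12321 had a peak in a promoter window of any annotated TSS (61.3%). Each gene's strength was the largest fold among those peaks. The upper quartile of bound genes, at or above 32.5, was called strongly bound (3081 genes, 15.3% of all), the lowest quartile, at or below 13.4, weakly bound (3085 genes, 15.3% of all), and 7777 genes (38.7%) were unbound. Values ran on across both limits. PEX6 at 32.47 and ANKRD11 at 32.47 were just inside the strong class and USP34 at 32.45 just outside, while OSTC, TMEM184C, CLU, MFSD14B and TRUB2 tied with others at 13.36, the last value of the weak class. The 3081 strongly bound genes shared 2398 distinct strongest peaks.

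The strongest peak of strongly bound genes mostly covered the start site. Its summit lay within 250 bp of the canonical TSS in 68.7% (67.1 to 70.3%) of strongly bound genes and in 44.5% (42.8 to 46.3%) of weakly bound ones, and the peak covered that TSS in 77.6% and 33.1%. In 2768 of 3076 strongly bound genes the strongest peak lay in the canonical window, and in the others it was reached through another annotated start. The median position within that window was -17 bp in the strong and -30 bp in the weak class.

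**Figure D3:**
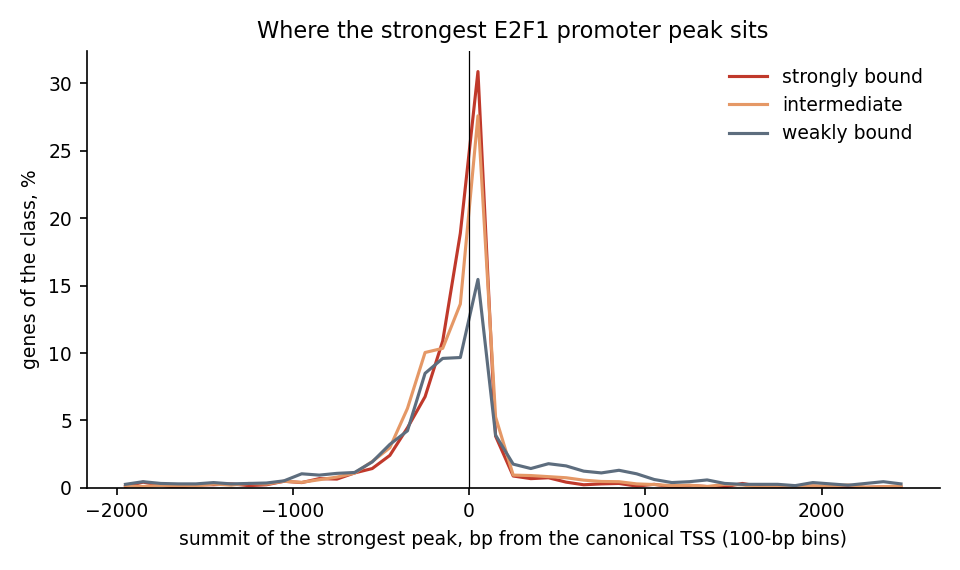
Summit of each gene's strongest peak relative to its canonical TSS (horizontal, bp, 100-bp bins) as a percentage of the genes in each class (vertical), for strongly bound, intermediate and weakly bound genes. All 3 classes peak just downstream of the TSS, and weakly bound genes are spread more widely, with 44.5% within 250 bp against 68.7%.

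Proliferation genes were bound far more often than the average gene. Over 7 lists, 266 of 294 genes (90.5%) had a promoter peak, against 61.3% of all protein-coding genes. Strongly bound were 161 (54.8%, 49.0 to 60.4%), against 15.3% of all protein-coding genes. DNA replication stood highest, with 55 of 55 genes bound and 35 (63.6%) strongly. RFC5 and RFC2, subunits of the clamp loader, had folds of 70.9 and 65.9, PCNA, the sliding clamp, 67.6, and MCM4, of the replicative helicase, 64.6. Nucleotide synthesis had 32 of 32 bound and 18 strongly. RRM2 and RRM1, the subunits of ribonucleotide reductase, had 57.4 and 53.4, CTPS1, a CTP synthase, 56.0 and MTHFD2, of mitochondrial folate metabolism, 55.6.

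Genes of the E2F pathway itself were all bound but spread over the whole range of strengths. E2F3 (57.0), RBL1 (48.8), E2F1 (46.6) and E2F8 (38.6) were strongly bound; E2F6 (25.7), TFDP1 (24.6), E2F7 (19.2), E2F5 (16.0), RB1 (15.4) and E2F2 (13.6) were intermediate, and E2F4 (11.5), RBL2 (8.61) and TFDP2 (6.95) weak. The E2F1 gene had 5 peaks with summits from 1214 to -416 bp of its TSS, with folds of 6.23, 8.84, 13.1, 46.6 and 21.2. The strongest was only 205 bp wide and carried the E2F motif shown above. Among G1/S regulators 25 of 27 were bound and 13 strongly, led by CCND1, which encodes cyclin D1 (66.0), and CDC25A, a phosphatase that activates CDK2 (63.9). CDKN2D, a CDK4/6 inhibitor (62.2), and CKS1B, a CDK-binding subunit (48.7, summit at -965 bp), came next. The 2 unbound members were CDKN2A and CDKN2B.

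Mitosis and DNA repair genes were bound without exception among those listed. All 58 mitosis and kinetochore genes had a promoter peak, 36 (62.1%) strongly and 0 weakly. Over all protein-coding genes 61.3% were bound, 15.3% strongly and 15.3% weakly. NCAPH2, a condensin subunit, had 76.6, CDC20, an activator of the anaphase-promoting complex, 69.1, BIRC5 66.3 and CDCA8, of the chromosomal passenger complex, 59.9. All 45 DNA repair genes were bound, 21 strongly, among them RAD54L (62.2), UBE2T (60.1) and UNG (51.1). RAD54L acts in homologous recombination, UBE2T in the Fanconi pathway and UNG in base excision.

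Replication-dependent histone genes were divided. Of 64, 34 were strongly bound, 26 were unbound and 4 fell between. The bound ones shared 23 distinct peaks. H2AC14 and H2BC14 shared 1 peak at a fold of 69.8, and H1-4 and H2BC5 another at 65.3. The strongest peaks of H2AC12 with H2BC12, H3C3 with H2BC3 and H2AC15 with H2BC15 carried an E2F motif.

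Housekeeping genes outside the cell cycle were bound about as often. Over 8 lists 559 of 602 (92.9%, 90.5 to 94.7%) had a promoter peak and 282 (46.8%, 42.9 to 50.8%) were strongly bound. For all protein-coding genes these shares were 61.3% and 15.3%. Cytosolic ribosomal proteins had the highest strong share of all lists, 60 of 87 (69.0%, 58.6 to 77.7%), with RPL36 (77.8), RPL29 (71.1), RPS7 (66.5) and RPL10 (64.8) at the top. Splicing factors followed with 42 of 72, led by the core proteins SNRPB (74.5) and SNRPD3 (63.0), with SF3B3 (60.3) and HNRNPF (58.5). Proteasome subunits had 26 of 48, with PSMC5 (54.8), PSMD2 (50.3), PSMC4 (49.2) and PSMA4 (49.1). Aminoacyl-tRNA synthetases had 18 of 39, with AARS1 (58.8), RARS2 (52.8), MARS1 (51.1) and PSTK (46.6).

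The other housekeeping lists were strong in 34.6 to 43.6% of their genes. Mitochondrial ribosomal proteins had 34 of 78, led by MRPL57 (73.3), MRPL37 (66.5), MRPL20 (61.4) and MRPS16 (61.3). The nucleolar and RNA polymerase list, which also held genes with WDR symbols, had 39.3% of its genes strong. It was led by NCL, which encodes nucleolin (75.1), POLR2A, the largest subunit of RNA polymerase II (73.3), POLR3D (70.0) and NOP53 (64.3). In the WDR family 34.5% of 58 genes were strong. Chaperones had 28 of 80, with HSP90AB1 (77.8), HSP90AA1 (76.5), DNAJB1 (65.8) and CCT6A (60.2), and the respiratory chain 28 of 81, with COX8A (81.8), NDUFA7 (58.0), NDUFV3 (56.4) and ATP5PD (55.4). The peaks of DNAJB1 and NDUFV3 lay at -11302 and -13772 bp of the canonical TSS, at other annotated starts.

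**Figure D4:**
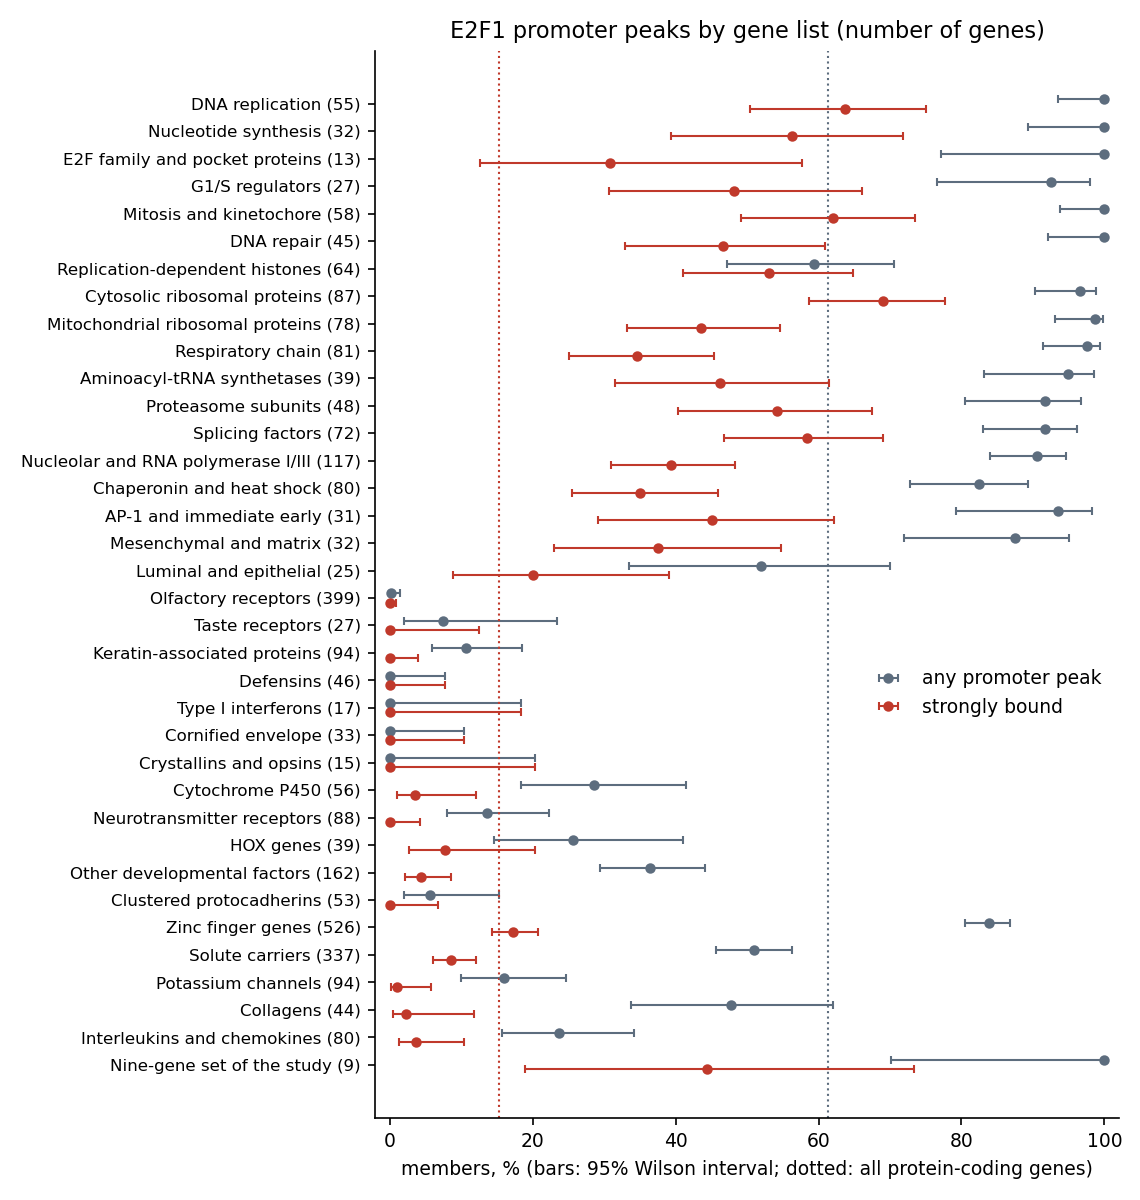
Percentage of members (horizontal) of each of 36 gene lists (vertical, with the number of genes) that had any E2F1 promoter peak and that were strongly bound, with 95% Wilson intervals; dotted lines give all protein-coding genes, 61.3% and 15.3%. Proliferation and housekeeping lists lie to the right of both lines except the histones, whose bound share is 59.4%, and tissue-restricted lists lie at 28.6% bound or lower.

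Lists of signalling and cell identity are set here against 61.3% bound and 15.3% strong of all genes. AP-1 and immediate early genes had 29 of 31 bound and 14 strongly. They were led by IER2 (83.9, summit 2642 bp downstream of the TSS), SPRY4 (68.9), and the MAP kinase phosphatases DUSP1 (65.4) and DUSP4 (64.3). Mesenchymal and matrix genes had 28 of 32 bound (87.5%, 71.9 to 95.03%) and 12 strongly. AXL, a receptor kinase, had 64.3, THBS1, a matrix glycoprotein, 46.7, VIM, the intermediate filament vimentin, 46.2, and IL11, a cytokine, 45.0. Luminal and epithelial genes had 13 of 25 bound (52.0%, 33.5 to 70.0%) and 5 strongly (20%), both intervals holding the share of all genes. Among them were KRT19 (61.8) and ESRP2 (52.6, summit at -1797 bp of the canonical TSS). KRT8 and KRT18 shared 1 peak at 40.3 that lies at -44763 bp of the canonical TSS of KRT8.

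Genes in lists chosen as restricted to other tissues were almost all unbound. Over 9 lists 41 of 775 (5.29%, 3.92 to 7.10%) had a promoter peak and 2 were strongly bound. For all protein-coding genes the shares were 61.3% bound and 15.3% strongly bound. Of 399 olfactory receptors 1 had a peak, OR5H14, of 113 bp and a fold of 5.70. None of 46 defensins had one, which allows a share of up to 6.52%, and none of 33 cornified envelope genes (up to 9.09%) or 15 crystallins and opsins (up to 20%). None of 17 type I interferons had one either, but 16 of these lie in a stretch of chromosome 9 without any E2F1 peak, described below with 2 others, and without the genes of those stretches the share over the 9 lists was 5.51%. Keratin-associated proteins had 10 of 94 bound, with KRTAP4-8 at 31.8, KRTAP2-3 at 30.9, KRTAP4-11 at 16.7 and KRTAP4-9 at 9.74. Neurotransmitter receptors had 12 of 88, led by GRIN1 (22.4), CHRNA5 (19.9), GRIN2D (16.0, summit at -2152 bp) and GABRE (13.1). Of 27 taste receptors 2 were bound, TAS2R14 (18.8) and TAS1R1 (14.2). The peaks of TAS2R14 and GRIN1 lay far from their canonical TSS, at -232355 and 30404 bp, and that of OR5H14 at 3959 bp, each at another annotated start. The 2 strongly bound genes were cytochrome P450 genes, CYP2R1 (46.8), a vitamin D hydroxylase, and CYP20A1 (40.5), ahead of CYP46A1 (31.2) and CYP51A1 (26.1) among 16 bound of 56. That list, with 16 of the 41 bound genes, was drawn by symbol, and tissue restriction of its members was not tested.

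Developmental genes were mostly unbound although their promoters were rich in CpG. Of 39 HOX genes 29 were unbound, and these 29 had a median observed-to-expected CpG ratio of 0.809, against 0.793 in strongly bound promoters and 0.372 in all unbound ones. Of 162 other developmental factors 103 were unbound, with a median CpG ratio of 0.770. The clustered protocadherins had 50 of 53 unbound, and PCDHGB1 at 11.04, PCDHGC3 at 6.62 and PCDHB9 at 3.91. Bound members of these lists included HOXB9 (43.1), HOXC6 and HOXC9 (1 shared peak at 35.6), HOXD1 (19.2), SIX5 (59.7), SOX9 (52.0), POU2F3 (54.0) and FOXM1 (54.2), a factor of mitotic transcription. The shared HOXC peak lay at -4488 bp of the canonical TSS of HOXC9 and -32767 bp of that of HOXC6, the POU2F3 peak at -3350 bp and the PCDHGC3 peak at 33304 bp.

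Weakly bound genes did not collect in the proliferation lists, where they made up 11 of 294 (3.74%, against 15.3% of all genes). Collagens had the largest weak share among the lists, 15 of 44 (34.1%), with 23 unbound and COL13A1 (37.7) alone strong, ahead of COL8A1 (31.0), COL6A1 (29.1) and COL7A1 (20.5, at 29047 bp of its canonical TSS). Interleukins and chemokines had 11 weak of 80, and their strongest were IL11 (45.0), IL23A (43.0), IL5 (33.4) and CXCL3 (27.5), the peaks of IL23A and IL5 lying at other annotated starts, at -4669 and -13432 bp of the canonical TSS. Solute carriers were 8.61% strong and 15.4% weak among 337 genes, led by the amino acid transporters SLC1A5 (69.9) and SLC38A2 (48.2), with SLC25A5 (47.9) and the glucose transporter SLC2A1 (47.1). Potassium channel genes were 84.0% unbound, KCNN4 (36.4) being strong and KCNAB2 (20.4, at -19580 bp), KCNAB3 (19.4, at -2369 bp) and KCNK1 (14.3) next. Zinc finger genes were bound in 83.8% of 526, against 61.3% of all genes, and strong in 17.3% (14.3 to 20.8%), near the 15.3% of all genes, with ZFP36 (75.9), ZNF274 (62.6), ZNF33A (61.2) and ZNF718 (60.2) at the top. Among families of symbols with the same leading letters, TSPAN (9 of 22), MAP (19 of 48) and SEMA (7 of 20) had the largest weak shares; these 3 were picked after their values were seen.

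The genes were also grouped by the leading letters of their symbols. Of 103 families with at least 20 protein-coding genes, the strong share was highest in RPL (69.2%), NUP, the nucleoporins (56.5%), RPS (51.2%), MED, the Mediator subunits (15 of 30), RAD (10 of 20), MRPL (49.0%), H, mostly histones (43.96%), DDX, RNA helicases (43.2%), EIF, translation initiation factors (41.8%), and POLR, RNA polymerase subunits (41.2%). The bound share was lowest in DEFB and PRAMEF (0 of 40 and 0 of 23), OR (0.241%), AL (2.56%), CT (1 of 25), UGT (4.55%), TAS (7.41%), CLEC (9.68%), CCL (10.3%) and AC (10.5%). AL and AC collect genes that carry only a clone name, and CT mixes cancer-testis genes with others.

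Strongly bound promoters were more often divergent, that is, had the TSS of another protein-coding gene on the opposite strand within 1 kb upstream. The share was 21.4% (19.9 to 22.8%) in the strong class, 15.3% in the intermediate, 5.57% (4.81 to 6.43%) in the weak and 1.45% in the unbound class. A peak between such genes counts for both. Median CpG ratio within 500 bp of the TSS was 0.793 in the strong, 0.784 in the intermediate, 0.765 in the weak and 0.372 in the unbound class. Among promoters with a ratio under 0.2, 13.5% were bound and 1.92% strongly, and among those of at least 0.8, 82.4% and 21.95%. The letters TATAAA between 40 and 15 bp upstream of the TSS were most frequent in unbound promoters (7.11%), lowest in the intermediate class (1.09%) and 3.32% in the strong class.

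The E2F motif was most frequent at genes of DNA replication, DNA repair and the E2F family. Counting each gene's strongest peak once, the motif lay within 50 bp of the summit in 15 of 55 peaks of replication genes (27.3%, 17.3 to 40.2%), 9 of 45 of repair genes (20%, 10.9 to 33.8%) and 4 of 13 of the E2F family list, against 5.25% (4.43 to 6.22%) of strongly bound genes in general. In cytosolic ribosomal protein genes, the list with the highest strong share, it lay in 1 of 84 (1.19%, 0.21 to 6.44%). The replication genes with the motif were TOPBP1, MCM2, GINS3, GINS1, ORC3, MCM5, CLSPN, RPA3, POLD3, CDC6, POLD1, RFC3, POLE, MCM6 and GINS2. Nucleotide synthesis had it in 0 of 31, G1/S regulators in 3 of 25 and mitosis in 3 of 58.

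In mitosis genes the CHR was the more frequent element. It lay within 50 bp of the summit in 24 of 58 strongest peaks (41.4%, 29.6 to 54.2%), against 4.34% of strongly bound genes and 3.22% of all TSS windows. The CCAAT box lay in 28 of 58 (48.3%), against 11.8% of strongly bound genes and 9.34% of all TSS windows, and 16 had both. Beside the 4 genes shown above the 24 include the kinases CDK1, PLK1, AURKB and TTK, the kinesins KIF4A, KIF11, KIF18A and KIF20B, and the kinetochore genes NDC80, NUF2, SPC25 and CENPF.

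Peaks of ribosomal protein genes had ETS and YY1 motifs more often than either element. The ETS motif lay in 21.1% (13.4 to 31.5%) of mitochondrial and 14.3% (8.37 to 23.3%) of cytosolic ribosomal protein peaks. Strongly bound genes had it in 12.6%, which the cytosolic interval holds. The YY1 motif lay in 11.8% and 11.9%, against 4.17%. Respiratory chain peaks had ETS in 13.9% and YY1 in 10.1%, and proteasome peaks in 13.6% and 9.09%. Each motif was sought in both strands by its exact letters, so a match is a description and its absence says only that these letters were not in the window.

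**Figure D5:**
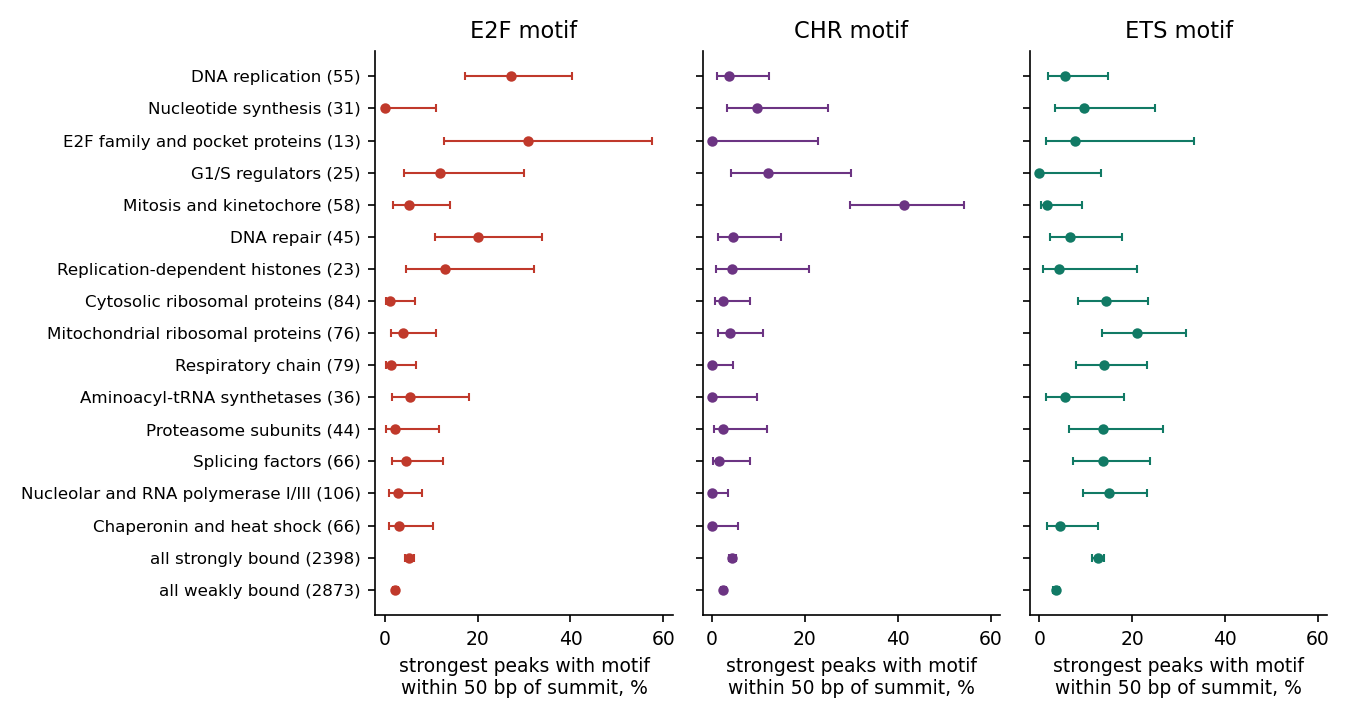
Percentage of distinct strongest promoter peaks (horizontal) with an E2F, CHR or ETS motif within 50 bp of the summit, for each proliferation and housekeeping list and for all strongly and weakly bound genes (vertical, with the number of peaks); bars are 95% Wilson intervals. E2F is highest in the E2F family, replication and repair lists, and CHR reaches 41.4% in mitosis genes.

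Some unbound members of the proliferation and housekeeping lists lay together in stretches without any peak. The 12 unbound histone genes from H4C4 to H2BC10 and 1 further gene lay in 99.9 kb of chromosome 6, from 26184798 to 26284680, with no peak of E2F1, MYC or Fra-1. RPS18, MRPS18B, VARS1, VARS2, PSMB8, PSMB9, POLR1H, WDR46, HSPA1A, HSPA1B and HSPA1L lay in 5127 kb of chromosome 6 that hold the major histocompatibility genes, from 28411449 to 33538874, where 184 protein-coding genes had no peak of any of the 3 factors. The assembly that the reads were aligned to also held alternate copies of that region, and 18 of the E2F1 peaks left out lay on chromosome 6 copies. CDKN2A and CDKN2B lay in 4992 kb of chromosome 9 without a peak of E2F1, from 20685100 to 25677353, together with MTAP and the interferon genes. Reads had to map uniquely to a masked genome, and neither mappability nor the copy number of these regions was tested. The stretches were noticed after the values were seen. Without their genes, 38 of 52 histone genes (73.1%) and 559 of 591 housekeeping genes (94.6%) were bound.

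Many of the other unbound members are known as copies or tissue-specific relatives of the listed genes. Among ribosomal, respiratory, proteasome and splicing genes they included RPL10L, UQCRHL, ATP5MGL, PSMA8, PSMB11, HNRNPCL1, HNRNPCL2, HNRNPA1L2, HNRNPA1L3, SRSF12 and SNRPN. In the nucleolar and polymerase list, with its WDR symbols, they were POLR2J, UTP14C, NOL4, WDR49, WDR64, WDR72, WDR86, WDR88 and WDR97. Among chaperones they were HSPA6, HSPA12B, HSPB2, HSPB3, HSPB7, HSPB8, DNAJA4, DNAJB7, DNAJB8, DNAJB13 and DNAJC12. The further unbound histone genes were H1-1, H1-5, H2AC1, H2AC16, H2AC25, H2BC1, H2BC26, H3C11, H3C14, H3C15, H4C9, H4C13, H4C14 and H4C15. Genes with near-identical copies cannot be read as free of E2F1 from uniquely mapped reads.

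The 9 genes that the study depleted were all bound, 4 of them strongly. SFN, which encodes 14-3-3 sigma, had 64.6 at a peak 1904 bp downstream of its TSS and 40.9 at the TSS. E2F1 had 46.6, ADORA2B, an adenosine receptor, 38.9, and ABHD11, a mitochondrial hydrolase, 36.8. PAICS, of purine synthesis, had 28.5, SH3GL1, an endophilin, 24.04, EZH2, the methyltransferase of Polycomb complex PRC2, 24.02, IGFBP3, a binding protein of insulin-like growth factors, 15.6, and PTP4A1, a phosphatase, 15.4. At EZH2 the E2F motif lay not at the strongest peak but at a second peak with a fold of 21.6, whose summit lay at -13 bp of the TSS.

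Genes of other kinds were bound less often than protein-coding ones. A promoter peak was found at 24.9% of 18592 long noncoding RNA genes, 11.3% of 1455 small nucleolar RNA genes, 10.1% of 3029 microRNA genes and 3.11% of 9949 processed pseudogenes. Across chromosomes the share of protein-coding genes bound ranged from 43.96% on X and 46.7% on 21 to 69.0% on 15.

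MACS2, the peak caller, recorded 21567296 tags of the E2F1 library and kept 18056168 after allowing 1 tag per position, and kept 10758036 of 23219275 input tags. The E2F1 list was the longest of the 3 although the MYC library was deeper, with 23853621 tags kept. No deposited value separates binding of E2F1 itself from other proteins that the antibody or crosslinking could bring along, and this was not tested.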

How the data were processed

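E2F1, MYC and Fra-1 ChIP libraries and input DNA came from LM2 cells with no treatment named, 1 library each. Per the submitters' processing notes, the study's methods and the file headers, the authors used Trimmomatic 0.27 for trimming and Bowtie 0.12.5 for unique alignment to a masked hg19 genome, then removed duplicates and called peaks with MACS2 2.0.10 at a q-value cutoff of 0.01. The deposited lists give each peak's pileup (signal), its fold enrichment over local input (a ratio), and −log10 p and q. The 32 E2F1 peaks on other sequences were left out, and an EZH2 library was not analysed here.

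Peaks were placed on GRCh37 with GENCODE 44 lifted to that build, requiring 1 bp of overlap with the window from 2 kb before a TSS to 2.5 kb after it. Local input level was recovered as (pileup + 1) / fold − 1. Motifs were exact letters on both strands within 50 bp of a summit. Named genes were the 4 strongest of each list, all of the E2F family, the 10 strongest and widest peaks and the extreme families. Peaks and lists were chosen with earlier results of these data known. Sequences on chromosome 8 are not shown, and some genes that this rule names are not reported here. Scripts (pysam 0.24.0 for sequence, pandas 2.3.3 and scipy 1.17.1 under Python 3.11.15) were tested on simulated data. Tag counts set the precision. With 18056168 E2F1 tags kept, the deposited summit pileup, not a raw tag count, ran from 5 to 134 with a median of 20.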

Additional observations from a re-analysis of the deposited data

How the results depend on the processing

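No paired analysis was possible because each factor had 1 library, and no library could be left out. Against 96.1% of the strongest 10% at promoters, ranking by pileup gave 94.1% and canonical protein-coding TSS alone 86.9%. The share of promoters with several peaks, 52.9%, became 47.8% with windows of 1 kb either side, 13.6% with peaks within 500 bp merged and 24.9% with peaks of at least 10-fold. The E2F motif share of the strongest 10%, 4.74%, became 7.15% within 100 bp. The strong share of proliferation genes, 54.8%, became 61.6% with genes ranked by −log10 q and 64.3% by pileup. The divergent share of strongly bound genes, 21.4%, became 17.7% within 500 bp, and their median CpG ratio, 0.793, became 0.850 within 250 bp of the TSS. Without the genes of the peak-free stretches, an alternative chosen after seeing the data, 73.1% of histone genes were bound instead of 59.4%, and 5.51% of tissue-restricted genes instead of 5.29%. The number of bound genes stayed between 10442 and 12321 under all its alternatives. For the shifts other than those set by a narrower or wider window, the cause was not tested. With 1 library, no spread between replicates is known. Of the 36901 peaks 747 had −log10 q under 3, so an unbound gene is one without a peak at this depth, not one shown to lack E2F1. Which sequence was masked before alignment is not given in the sources used here.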
